A study of Danio rerio with 2 samples.

Results

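Cells keep reactive oxygen low with a chain of enzymes. Superoxide dismutases turn superoxide into hydrogen peroxide, and catalase, glutathione peroxidases and peroxiredoxins break peroxides down. The thioredoxin and glutathione systems hand the peroxiredoxins and glutathione peroxidases their electrons. The transcription factor Nfe2l2 (Nrf2), held back by Keap1, switches on many of the genes under oxidative or electrophilic stress. The genes described here are 41 named members of this system, looked up by name in a table of estimated counts for 26597 zebrafish genes. The names led to 40 gene IDs, of which 39 reached the floor of 1 CPM (counts scaled to library size) in either library, among 19829 genes of the series that did so.

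The study compared a wild-type (WT) zebrafish library with a library from zebrafish treated with salvianolate, a mix of salvianolic acids made from the herb Salvia miltiorrhiza (danshen). Both were labelled as total RNA of cardiac tissue, and the title of the treated one speaks of embryos. The labels give no strain, age, dose, duration or number of animals. Each group was 1 library, so no difference below has a replicate check and no p-value is given. Intervals are exact 95% Clopper-Pearson intervals of the ratio of the counts of both libraries and cover counting error only.

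The WT library held 19531764 estimated counts and the treated library 19295524, and the members took 0.289% and 0.283% of them. Genes of the labelled tissue, heart, were a small part of these libraries. The 10 gene IDs of the heart muscle list, among them MYL7 and nppa, summed to 109 CPM in WT and 99.7 CPM in treated. Those of skeletal muscle summed to 33625 and 36657 CPM, of skin to 15733 and 11376 CPM, and of liver to 13992 and 12394 CPM. Fewer cells of a type and less RNA per cell cannot be told apart in such bulk samples. Over all genes at the floor, 532 were higher and 143 lower in treated by the 2-fold call given below, whereas the design text of the series gives 109 up and 565 down. These counts need not rest on the same threshold, test or set of genes. Every direction below follows the library labels, and an exchange of labels would turn it.

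Some names do not lead to a single gene. The names table gives PRDX1 to ENSDARG00000025350 and prdx1 to ENSDARG00000058734, and no ID to prdx2. RefSeq's gene table lists both prdx1 and prdx2 and gives prdx1 as an older name of prdx2, without tying either to these IDs, so both are named by ID here. SOD3 stands for 2 IDs, HMOX1 for 1 ID under both hmox1a and hmox1b, and GPX4, HMOX2, NFE2L2 and KEAP1 for the copies gpx4b, hmox2a, nfe2l2a and keap1b. TXN led to 1 ID, though it is an older name of both txna and txnb. Copies with similar sequence may share reads, so the split between such copies is uncertain.

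Most members stood at nearly the same level in both libraries, and 1 of 39 met the call for a 2-fold difference. That gene was gstp1.1, a pi-class glutathione transferase, which was higher in the treated library. At the other end HMOX1, the inducible haem oxygenase, had the lowest ratio at 0.56-fold. Between these ends, the peroxiredoxin and thioredoxin genes lay mostly slightly lower in the treated library, SOD1 and SOD2 slightly higher, and the genes of glutathione synthesis within counting error.

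The call of at least 2-fold higher with an interval above a ratio of 1 was met by 1 of 39 members and by 2.68% of all genes at the floor. The matching call for lower was met by 0 of 39 members and by 0.721% of all genes. The interval lay above 1 for 5 members, beside 17.4% of all genes, and below 1 for 12 members, beside 17.3% of all genes. The median log2 ratio of the members was -0.06, and that of all genes was -0.002. Ratios stayed within 0.25 of 0 on the log2 scale for 29 of 39 members, a share of 74.4%, against 63.2% of all genes.

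The shares over all genes also differed with the level of the genes. Of the 39 members, 26 had at least 20 CPM in either library, and of these 4 had an interval above 1 and 10 below. Among all genes with at least 20 CPM the shares were 19.3% above and 29.9% below. The median log2 ratio was -0.038 for these members and -0.038 for these genes. This floor was chosen after seeing the data. The split of intervals also depends on library scaling. With total counts in place of the trimmed mean of M-values (TMM), which moves every log2 ratio up by 0.06, it was 9 above and 8 below. The ratios of all genes move by the same amount, and their shares with total counts are not given here.

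**Figure D1:**
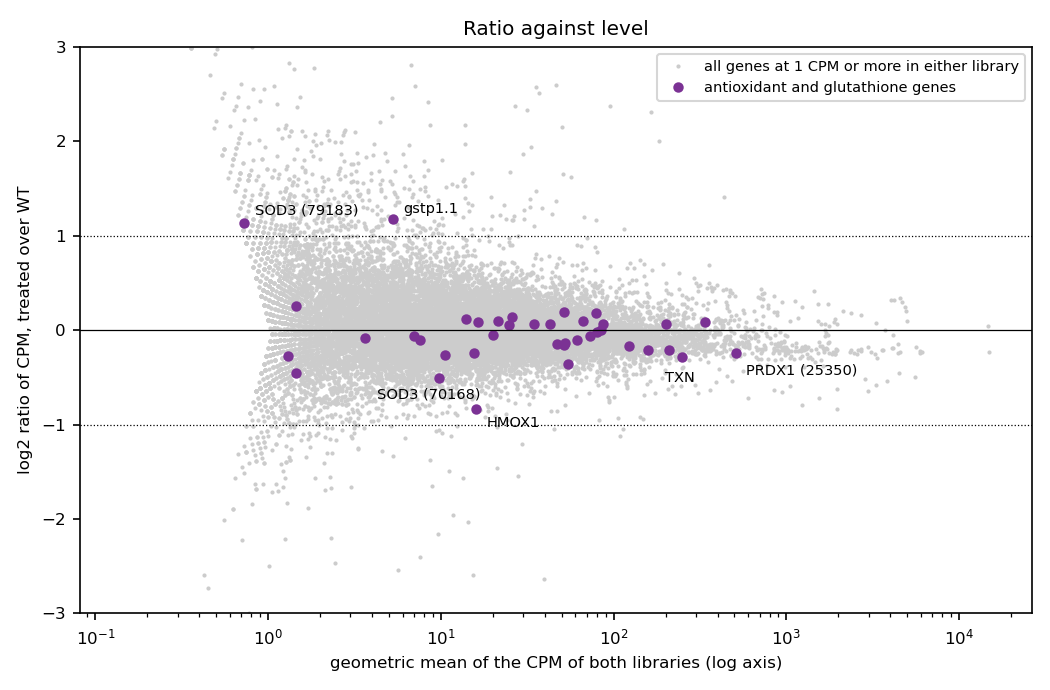
Log2 ratio of CPM, treated over WT, against the geometric mean of the CPM of both libraries on a log axis, for all genes at 1 CPM or more in either library (grey) and the antioxidant and glutathione genes (purple). Dotted lines mark a 2-fold difference, 14 genes lie beyond the log2 range of 3 drawn and none of them is a member. Above the upper line lie gstp1.1 and the low SOD3 copy, which reached the floor only through the treated library. HMOX1 is the lowest member.

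By length-scaled level, the deposited FPKM, the system was carried by few genes. PRDX1 (ENSDARG00000025350) had 532 FPKM in WT and 469 FPKM in treated, TXN 392 and 336 FPKM, gstp1.2 360 and 398 FPKM, gpx4a 242 and 218 FPKM, and GPX4 219 and 240 FPKM. These 5 genes held 62.9% of the summed FPKM of all members in WT and 61.4% in treated. Among them gstp1.2 lay under TXN in WT and above it in treated, and GPX4 likewise against gpx4a. At the low end, gpx3, SOD3 (ENSDARG00000079183), gsto1 and nfe2l2b had less than 1 FPKM in both libraries.

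**Figure D2:**
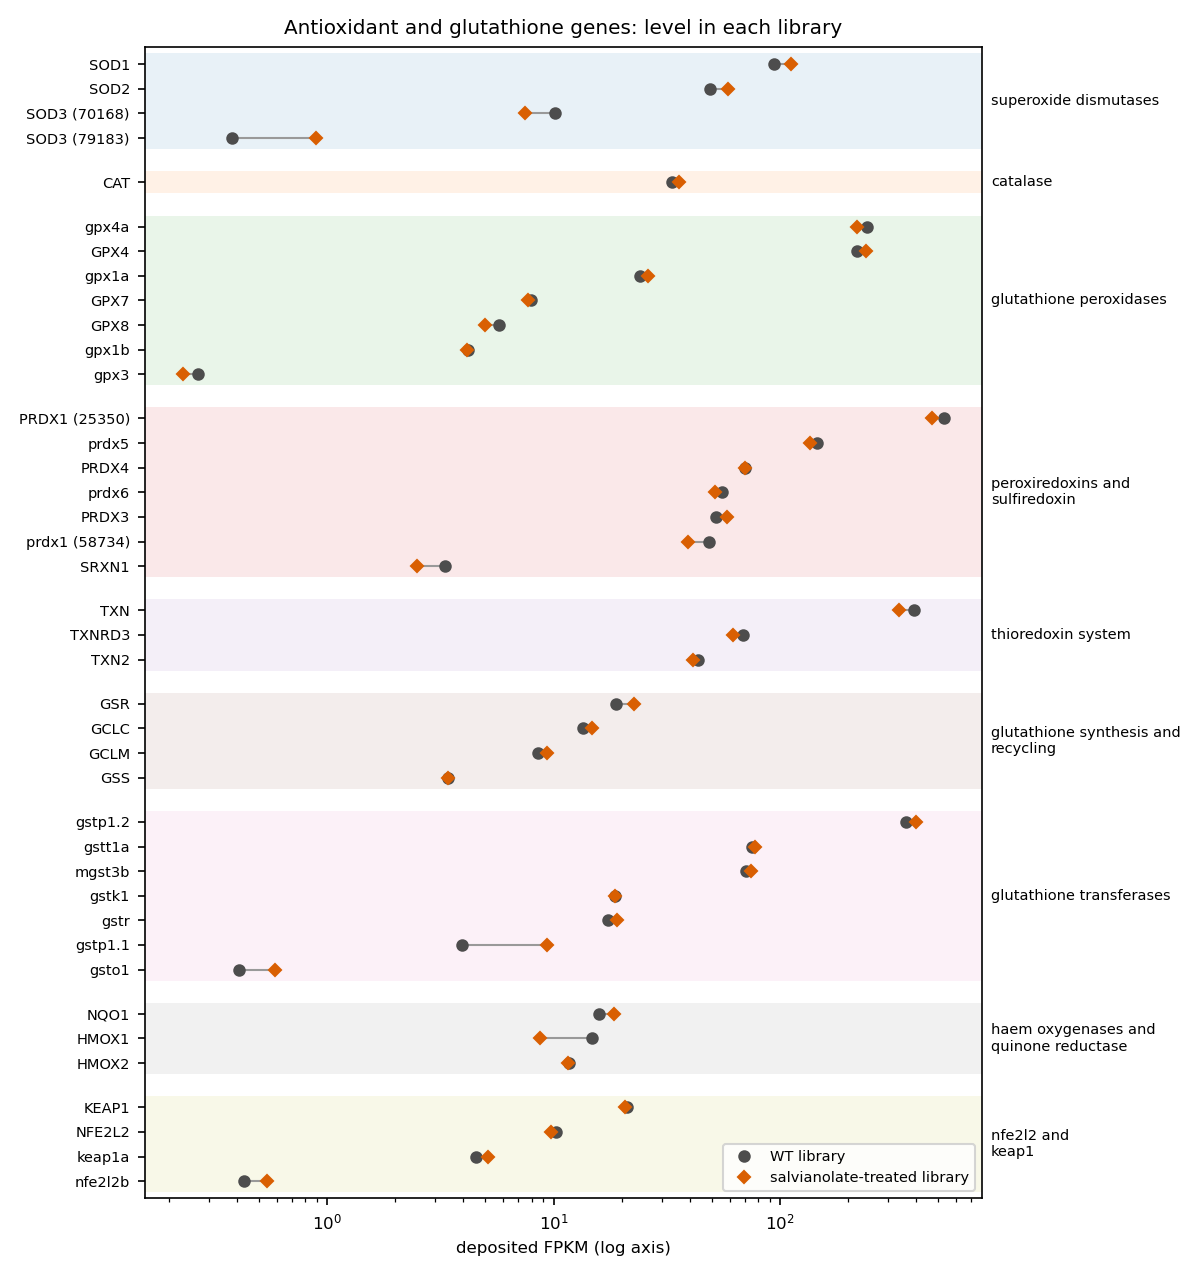
Deposited FPKM on a log axis for each antioxidant and glutathione gene in the WT library (circles) and the treated library (diamonds), grouped by class, with the last 5 digits of the gene ID where a name has more than 1. The libraries nearly coincide for most genes, and the lines between them are longest for gstp1.1, HMOX1 and the low SOD3 copy.

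Superoxide dismutases differed by copy. SOD1, the copper and zinc enzyme of the cytosol, stood at 74.4 CPM in WT and 84.5 CPM in treated, with a log2 ratio of 0.18 (0.08 to 0.29). SOD2, the manganese enzyme of mitochondria, stood at 48.2 and 54.9 CPM, with a log2 ratio of 0.19 (0.06 to 0.32). Both were thus higher in the treated library by about the same small ratio. The extracellular enzyme is encoded by SOD3 genes. The more abundant copy, ENSDARG00000070168, went the other way, from 11.7 CPM in WT to 8.22 CPM in treated, with a log2 ratio of -0.50 (-0.81 to -0.21). The other copy, ENSDARG00000079183, had 9 counts in WT and 21 in treated, or 0.47 and 1.07 CPM, and reached the floor only through the treated library. Its log2 ratio of 1.13 had an interval of -0.01 to 2.49, which includes 0 barely and lay above 0 with total-count scaling. Of the counts of both copies, it took 3.88% (1.79 to 7.24) in WT and 11.5% (7.25 to 17.0) in treated.

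Catalase, which breaks down hydrogen peroxide in peroxisomes, stood at 85.3 CPM in WT and 89.1 CPM in treated. The log2 ratio of CAT was 0.06 (-0.03 to 0.16), which includes no difference, and its interval lay above 0 with total-count scaling.

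Glutathione peroxidases reduce peroxides with glutathione. Of the 7 genes, 5 had an interval that included a ratio of 1, beside 12930 of all 19829 genes at the floor. The exceptions among the 7 were the copies of gpx4, whose enzyme acts on lipid hydroperoxides in membranes. That enzyme is known for guarding cells against ferroptosis. The copy gpx4a stood at 225 CPM in WT and 194 CPM in treated, with a log2 ratio of -0.21 (-0.27 to -0.15). The GPX4 row, matched for gpx4b, stood at 197 and 206 CPM, with a log2 ratio of 0.07 (0.006 to 0.13). The copies went opposite ways by small amounts, and with upper-quartile scaling the interval of GPX4 included 1. Of the pair's counts, gpx4a took 53.3% (52.2 to 54.4) in WT and 48.5% (47.4 to 49.6) in treated, a comparison within each library that no scaling touches. Their counts summed to 8048 in WT and 7898 in treated.

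The cytosolic enzyme genes gpx1a and gpx1b had log2 ratios of 0.05 (-0.13 to 0.24) and -0.09 (-0.59 to 0.41). In FPKM, gpx1a lay above gpx1b by 5.74-fold in WT and 6.32-fold in treated. GPX7 and GPX8, peroxidases of the endoplasmic reticulum, had -0.10 (-0.44 to 0.24) and -0.26 (-0.55 to 0.02). The secreted plasma enzyme gene gpx3 had only 27 counts in WT and 23 in treated, with a log2 ratio of -0.27 (-1.14 to 0.58) that this depth cannot tell from 0.

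Peroxiredoxins are peroxidases that take electrons from thioredoxin. Of the 7 genes of this class, sulfiredoxin included, 4 had an interval below a ratio of 1, 3 included 1 and none lay above, beside 17.3% of all genes below at the floor and 29.9% at 20 CPM or more. PRDX1 (ENSDARG00000025350), the most abundant member, stood at 554 CPM in WT and 467 CPM in treated, with a log2 ratio of -0.24 (-0.29 to -0.20). The gene named prdx1 (ENSDARG00000058734) stood at 62.0 and 48.4 CPM, with a log2 ratio of -0.36 (-0.48 to -0.23), the lowest of the class with an interval below 1. Both rows are thus lower in the treated library, and prdx1 took 10.1% (9.53 to 10.6) of their joint counts in WT and 9.39% (8.83 to 9.97) in treated.

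The gene prdx5, whose enzyme serves mitochondria and peroxisomes, stood at 130 and 115 CPM, with a log2 ratio of -0.17 (-0.26 to -0.09). The gene prdx6, whose enzyme has 1 catalytic cysteine and can use glutathione, stood at 54.5 and 48.8 CPM, with a log2 ratio of -0.16 (-0.29 to -0.03) that included no difference with total-count scaling. The mitochondrial PRDX3 was the sole member of the class above 0, at 0.10 (-0.02 to 0.21), and its interval lay above 0 with total-count scaling. PRDX4 of the endoplasmic reticulum had -0.06 (-0.17 to 0.05), with a sign that turned with total counts and with FPKM. SRXN1, which repairs over-oxidised peroxiredoxins and is a well-known Nrf2 target in mammals, had 32 counts in WT and 24 in treated and a log2 ratio of -0.45 (-1.29 to 0.35). Summed over the class, the FPKM was 908 in WT and 827 in treated.

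All 3 genes of the thioredoxin system were lower in the treated library, each with an interval below a ratio of 1. The share of all genes with such an interval was 17.3% at the floor and 29.9% at 20 CPM or more. TXN, named for the cytosolic thioredoxin, stood at 274 CPM in WT and 225 CPM in treated, with a log2 ratio of -0.28 (-0.34 to -0.23). TXNRD3, a thioredoxin reductase, stood at 170 and 146 CPM, with a log2 ratio of -0.21 (-0.29 to -0.14). TXN2, the mitochondrial thioredoxin, stood at 54.9 and 50.1 CPM, with a log2 ratio of -0.13 (-0.26 to -0.006), and its interval included no difference with total-count scaling. The treated level was thus between 0.82-fold and 0.91-fold of the WT level, and all genes of 20 CPM or more also had a median slightly below 0.

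**Figure D3:**
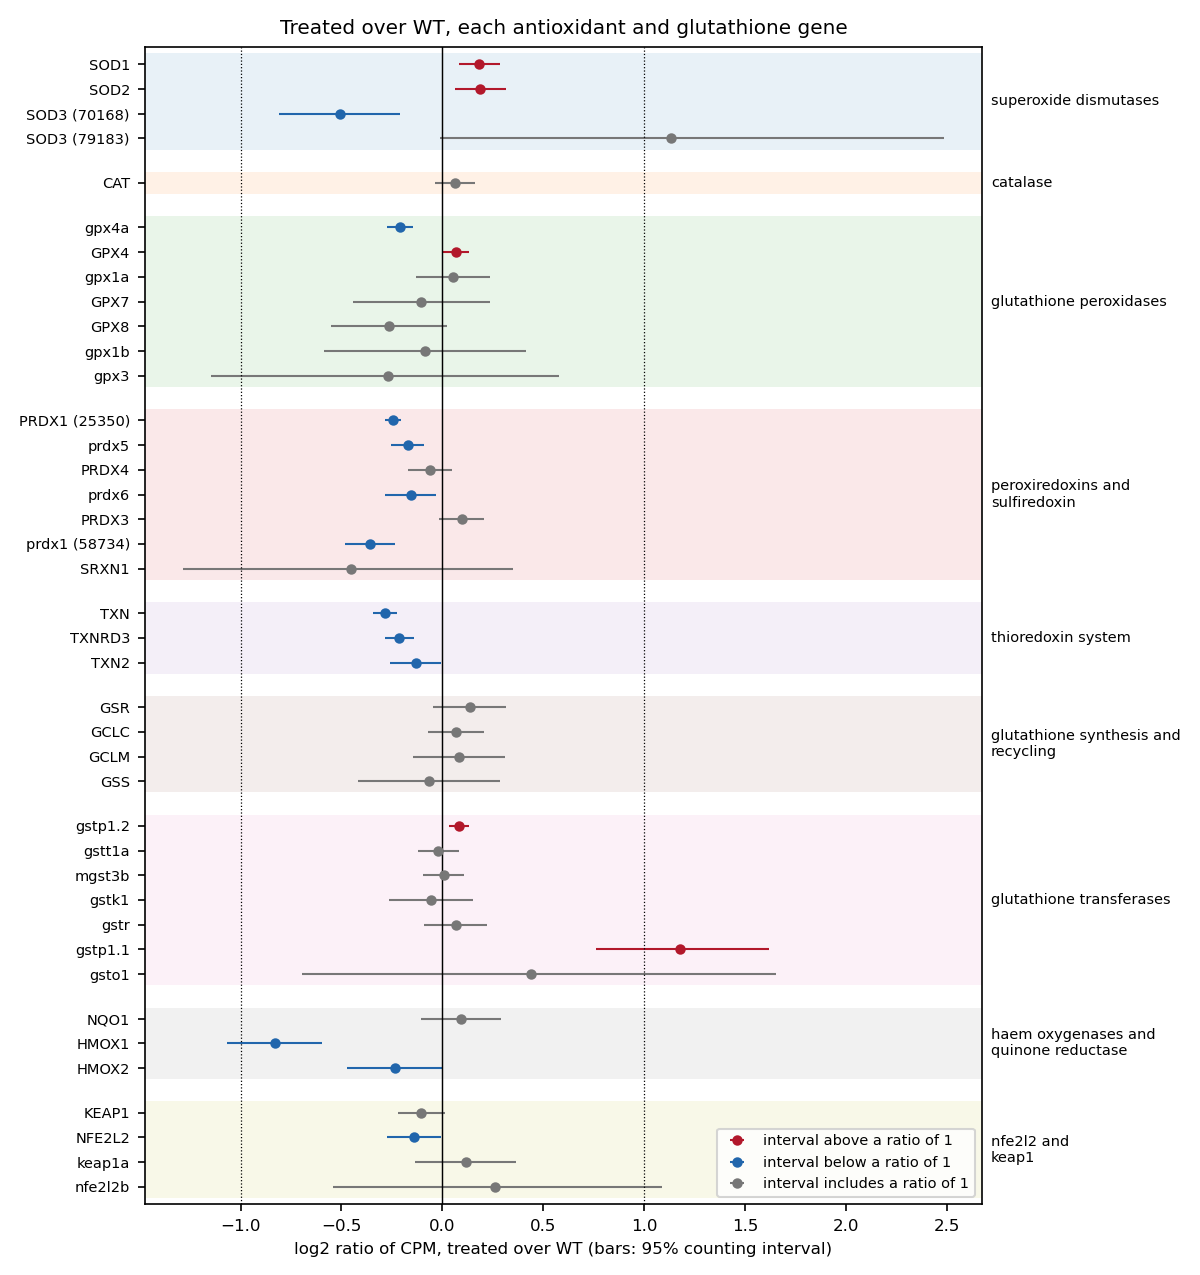
Log2 ratio of CPM, treated over WT, for each antioxidant and glutathione gene by class, with exact 95% counting intervals as bars and dotted lines at a 2-fold difference. Red points have an interval above a ratio of 1 (5 members), blue points below (12 members) and grey points include it. Of the 12 blue points, 7 are peroxiredoxin or thioredoxin genes, classes of 7 and 3 genes. Of all genes at the floor, 17.4% had an interval above 1 and 17.3% below. At 20 CPM or more the shares were 19.3% and 29.9%.

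Glutathione synthesis and recycling showed no difference beyond counting error. GCLC and GCLM encode the subunits of glutamate-cysteine ligase, the rate-limiting enzyme of glutathione synthesis. GCLC stood at 41.9 CPM in WT and 43.9 CPM in treated, with a log2 ratio of 0.07 (-0.07 to 0.21), and GCLM at 15.9 and 16.8 CPM, with a log2 ratio of 0.08 (-0.15 to 0.31). GSS, the synthetase of the next step, had -0.07 (-0.42 to 0.29). GSR, which returns oxidised glutathione to its reduced form, stood at 24.6 and 27.1 CPM, with a log2 ratio of 0.14 (-0.05 to 0.32). With total-count scaling the interval of GSR lay above 1. The intervals of GCLC and GCLM end at 0.21 and 0.31, and they cover counting error only, not the spread between replicate libraries.

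Glutathione transferases join glutathione to electrophiles, and the pi-class genes gstp1.1 and gstp1.2 are known Nrf2 targets in zebrafish. The gene gstp1.1 had 67 counts in WT and 157 in treated, or 3.51 and 7.96 CPM. This was 2.26-fold higher, a log2 ratio of 1.18 (0.76 to 1.62), the only member past a fold of 2 whose interval lay above 1. Its copy gstp1.2 stood at 329 and 348 CPM, with a log2 ratio of 0.08 (0.03 to 0.13). In FPKM gstp1.2 lay above gstp1.1 by 91.7-fold in WT and by 42.7-fold in treated. Of the counts of both copies, gstp1.1 took 1.05% (0.82 to 1.34) in WT and 2.24% (1.90 to 2.61) in treated.

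With so uneven a pair, reads of gstp1.2 assigned to gstp1.1 could weigh on the low copy, which was not tested. Among the cell type marker lists, those of photoreceptors and exocrine pancreas were also higher in treated and are named here for that direction. The sum of the skeletal muscle list was slightly higher too, with a log2 ratio of 0.12. Sums of the heart muscle, erythroid, liver, skin, leukocyte and dividing cell lists were lower, with log2 ratios from -0.64 to -0.11. The 9 gene IDs of the photoreceptor list, all above 0, summed to 143 CPM in WT and 756 CPM in treated. The 7 of the exocrine pancreas list, all above 0, summed to 38.8 and 110 CPM. Of all genes at the floor, 9849 of 19829 were above 0. PDC (ENSDARG00000011886) of the first list and ela2, ela3l and ctrl of the second reached the floor only through the treated library. Entry by that library alone fixes their direction. No gene of either list was at 0 in a library, and their part in the value of gstp1.1 was not tested.

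The other transferases lay close to 0. The rho-class gene gstr, a class of fish, had a log2 ratio of 0.07 (-0.09 to 0.22), the theta-class gene gstt1a -0.02 (-0.12 to 0.08), and the kappa-class gene gstk1 -0.06 (-0.26 to 0.15). The microsomal gene mgst3b had 0.006 (-0.09 to 0.11). The signs of gstt1a and gstk1 turn with total-count scaling and that of mgst3b with upper-quartile scaling. The omega-class gene gsto1 was the member under the floor, with 12 counts or 0.63 CPM in WT and 17 counts or 0.86 CPM in treated.

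**Figure D4:**
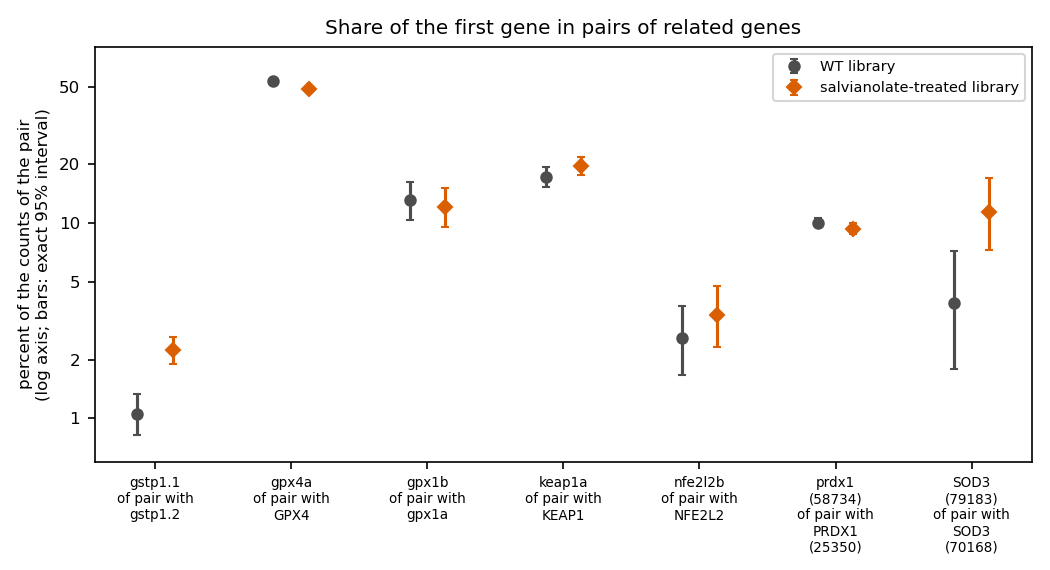
Percent of the counts of a pair of related genes taken by the first gene of the pair, on a log axis, in the WT library (circles) and the treated library (diamonds), with exact 95% intervals as bars. The intervals of the libraries are apart for gstp1.1, for gpx4a and, barely, for the SOD3 copies, and overlap for the other pairs. How often such intervals are apart over other pairs of genes was not computed, and they cover counting error only. The low SOD3 copy reached the floor only through the treated library, and its own log2 ratio had an interval of -0.01 to 2.49.

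Haem oxygenases break haem into biliverdin, iron and carbon monoxide. HMOX1, the form that Nrf2 and haem induce, had 409 counts in WT and 237 in treated, or 21.4 and 12.02 CPM. The log2 ratio was -0.83 (-1.07 to -0.60), the lowest of all members, and it passed a fold of 1.5 but not of 2. HMOX2, the constitutive form, stood at 16.8 and 14.3 CPM, with a log2 ratio of -0.24 (-0.47 to -0.002) whose interval included 1 with total-count scaling. NQO1, a quinone reductase and a standard reporter of Nrf2 activity in mammals, stood at 20.8 and 22.2 CPM, with a log2 ratio of 0.09 (-0.11 to 0.29).

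The next enzymes of haem breakdown were lower too. BLVRA and blvrb encode biliverdin reductases and were singled out after their values were seen. BLVRA stood at 10.2 CPM in WT and 6.29 CPM in treated, with a log2 ratio of -0.69 (-1.03 to -0.36), and blvrb at 36.6 and 25.5 CPM, with a log2 ratio of -0.52 (-0.69 to -0.36). Markers of red blood cells, which hold most haem, moved in the same direction. All 9 gene IDs of the erythroid list were below 0, beside 9980 of all 19829 genes at the floor. The list had a median log2 ratio of -0.69 and summed to 4811 CPM in WT and 3096 CPM in treated. The interval of gata1a included 1, at a log2 ratio of -0.32 (-0.81 to 0.17). None of the 9 was at 0 counts in either library. The haem synthesis gene alas2 stood at 146 and 76.3 CPM and the globin gene hbae3 at 4029 and 2703 CPM. The part of red cells in the values of HMOX1, BLVRA and blvrb was not tested.

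The regulators themselves differed little. NFE2L2, matched for nfe2l2a, stood at 49.7 CPM in WT and 44.98 CPM in treated, with a log2 ratio of -0.14 (-0.28 to -0.009) whose interval included 1 with total-count scaling. The second copy, nfe2l2b, described in zebrafish as a repressor of some of the same targets, had 25 counts in WT and 31 in treated, a log2 ratio of 0.26 (-0.54 to 1.09). Of the inhibitors, keap1a stood at 13.3 and 14.5 CPM, with a log2 ratio of 0.12 (-0.13 to 0.36). KEAP1, matched for keap1b, stood at 63.7 and 59.3 CPM, with a log2 ratio of -0.10 (-0.22 to 0.01), and its interval lay below 0 with upper-quartile scaling. In FPKM the NFE2L2 row lay above nfe2l2b by 23.8-fold in WT and 18.0-fold in treated.

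Around the members, 127 further names of the pathway were looked up in 8 lists, and 116 gene IDs reached the floor. Of these, 2 were at least 2-fold higher, beside 2.68% of all genes, and 0 at least 2-fold lower, beside 0.721%. Intervals lay above 1 for 21 genes, or 18.1%, and below 1 for 25, or 21.6%, beside 17.4% and 17.3% of all genes. The median log2 ratio was -0.04. With total counts the split was 31 above and 16 below, and the median was 0.03, with no shares of all genes given for that scaling. It moves every log2 ratio up by 0.06, so an interval below 0 that ends nearer to 0 than that would no longer lie below 0. With TMM scaling and a floor of 20 CPM, chosen after seeing the data, 65 of these genes remained. Of them, 10 had an interval above 1 and 21 below, beside 19.3% and 29.9% of all genes.

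Genes that make oxidants or support the dismutases had a median of -0.05 over 11 genes. NCF1, a subunit of the phagocyte NADPH oxidase, was the highest, with 23 counts in WT and 54 in treated, a log2 ratio of 1.17 (0.46 to 1.96). Of the leukocyte list, 9 gene IDs summed to 143 CPM in WT and 133 CPM in treated. Of the 8 at the floor, 6 lay below 0, as did 9980 of all 19829 genes at the floor. Their median was -0.07, and only CORO1A had an interval that left out 1, at -0.36 (-0.55 to -0.165). An MPEG1 row under the floor had 1 count in WT and 0 in treated. The part of leukocytes in the value of NCF1 was not tested. XDH, a xanthine dehydrogenase that can make superoxide, was the lowest of the list, at 28.8 and 19.02 CPM and a log2 ratio of -0.60 (-0.79 to -0.41). The copper chaperone gene atox1, the most abundant at 29.4 and 29.7 FPKM, had a log2 ratio of -0.05 (-0.27 to 0.17).

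Other genes of glutathione synthesis and turnover had a median of 0.07 over 14 genes. The aminopeptidase gene ANPEP ENSDARG00000103878, at 2.198 and 4.92 CPM, was the highest with a log2 ratio of 1.15 (0.63 to 1.72). Other IDs of that name, ENSDARG00000036809 and ENSDARG00000097285, had -0.06 (-0.22 to 0.11) and 0.33 (0.04 to 0.63). CHAC1, which degrades glutathione, was the most abundant and stood at 186 and 161 CPM, with a log2 ratio of -0.21 (-0.28 to -0.14). CHAC2, its relative, had the lowest ratio, -0.35 (-0.94 to 0.23). The cystine importer gene slc7a11, a Nrf2 target in mammals, had 0.26 (-0.25 to 0.78).

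Other transferase genes had a median of 0.03 over 12 genes, and the alpha-class copies went opposite ways. The alpha-class gene gsta.1 stood at 42.1 CPM in WT and 52.4 CPM in treated, with a log2 ratio of 0.32 (0.18 to 0.45). Its copy gsta.2 stood at 33.5 and 22.4 CPM, with a log2 ratio of -0.58 (-0.76 to -0.40), the lowest of the list. GSTCD had the highest ratio, from 2.88 and 5.58 CPM, at 0.95 (0.48 to 1.45). The microsomal MGST3, the most abundant at 84.2 and 91.9 FPKM, had 0.08 (-0.04 to 0.21).

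Other thioredoxin, glutaredoxin and methionine sulfoxide reductase genes had a median of -0.06 over 17 genes. Of these, 13 had an interval that included 1, beside 12930 of all 19829 genes at the floor. The thioredoxin inhibitor gene TXNIP had 2 rows that parted with TMM scaling. ENSDARG00000036107, the most abundant of the list, stood at 217 and 206 CPM, with a log2 ratio of -0.08 (-0.14 to -0.01). The upward shift of 0.06 with total counts is larger than the distance of this interval from 0. ENSDARG00000070000 stood at 11.04 and 13.4 CPM, with a log2 ratio of 0.28 (0.02 to 0.55). The lowest ratio was that of the methionine sulfoxide reductase gene MSRB1 ENSDARG00000045160, at 10.2 and 7.05 CPM and -0.53 (-0.86 to -0.21). Another MSRB1 row, ENSDARG00000025436, had -0.08 (-0.38 to 0.22). TXNRD2, the mitochondrial reductase (ENSDARG00000075923), had the highest ratio of the genes at the floor, 0.31 (-0.13 to 0.76). A further TXNRD2 row, ENSDARG00000094470, lay under the floor with 0 counts in WT and 10 in treated.

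Genes that supply NADPH, which both reductase systems consume, had a median of 0.06 over 10 genes, with 4 intervals above 1 and 3 below. The shares of all genes were 17.4% and 17.3% at the floor and 19.3% and 29.9% at 20 CPM or more. The pentose phosphate gene TKT stood at 37.1 CPM in WT and 62.9 CPM in treated, with a log2 ratio of 0.76 (0.63 to 0.90), the highest of the list. PGLS, a lactonase of that pathway, had 0.58 (0.17 to 0.99). TALDO1, its transaldolase, was the lowest at 172 and 152 CPM and -0.18 (-0.25 to -0.10). IDH2, the mitochondrial isocitrate dehydrogenase and the most abundant at 487 and 486 FPKM, had -0.07 (-0.11 to -0.02).

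Partners and regulators of Nrf2 were the most even list, with 19 of 20 genes within 0.25 of 0 on the log2 scale. Of all genes, 63.2% at the floor and 78.6% at 20 CPM or more lay within that range. The list had a median of -0.05. Its exception and highest gene was gsk3bb, a kinase gene, at 3.92 and 5.53 CPM and 0.49 (0.06 to 0.94). BACH2, of the Bach family of repressors, was the lowest at 89.8 and 77.6 CPM, with a log2 ratio of -0.21 (-0.31 to -0.11). RBX1, a subunit of the ubiquitin ligase that Keap1 serves and the most abundant by FPKM, stood at 72.7 and 66.8 CPM, with a log2 ratio of -0.12 (-0.23 to -0.01).

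Other genes known as Nrf2 targets in mammals had a median of -0.08 over 17 genes, with 3 intervals above 1 and 7 below, beside 17.4% and 17.3% of all genes at the floor and 19.3% and 29.9% at 20 CPM or more. The sestrin gene sesn2 was the lowest, at 13.3 CPM in WT and 8.06 CPM in treated, with a log2 ratio of -0.72 (-1.02 to -0.43), whereas SESN1 had 0.20 (0.10 to 0.29). The ferritin gene fth1a, the most abundant, stood at 643 and 608 CPM, with a log2 ratio of -0.08 (-0.12 to -0.04). FTH1 (ENSDARG00000007975), the other ferritin row, was the highest of the list at 16.0 and 20.8 CPM and 0.38 (0.16 to 0.60).

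Selenoprotein genes outside the peroxidases, with the genes that insert selenocysteine, had a median of -0.09 over 15 genes, with 2 intervals above 1 and 6 below, beside the same shares of all genes, 17.4% and 17.3% at the floor and 19.3% and 29.9% at 20 CPM or more. The selenium carrier gene selenop, the most abundant, stood at 953 CPM in WT and 768 CPM in treated, with a log2 ratio of -0.31 (-0.34 to -0.28). Its relative selenop2, the lowest, stood at 29.4 and 21.8 CPM, with a log2 ratio of -0.43 (-0.62 to -0.25). EEFSEC, the elongation factor for selenocysteine, had the highest ratio, 0.35 (0.08 to 0.62). The liver list, whose tissue is the main source of plasma selenoprotein P in mammals, had 7 of 9 genes at the floor below 0 and none at 0 counts. Of all genes at the floor, 9980 of 19829 were below 0. The median of the list was -0.205. The 2 genes above 0 were tfa, at 0.07 (0.05 to 0.09), and fabp10a, which was far higher at 1.69 (1.14 to 2.30). The part of liver in the values of selenop and selenop2 was not tested.

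**Figure D5:**
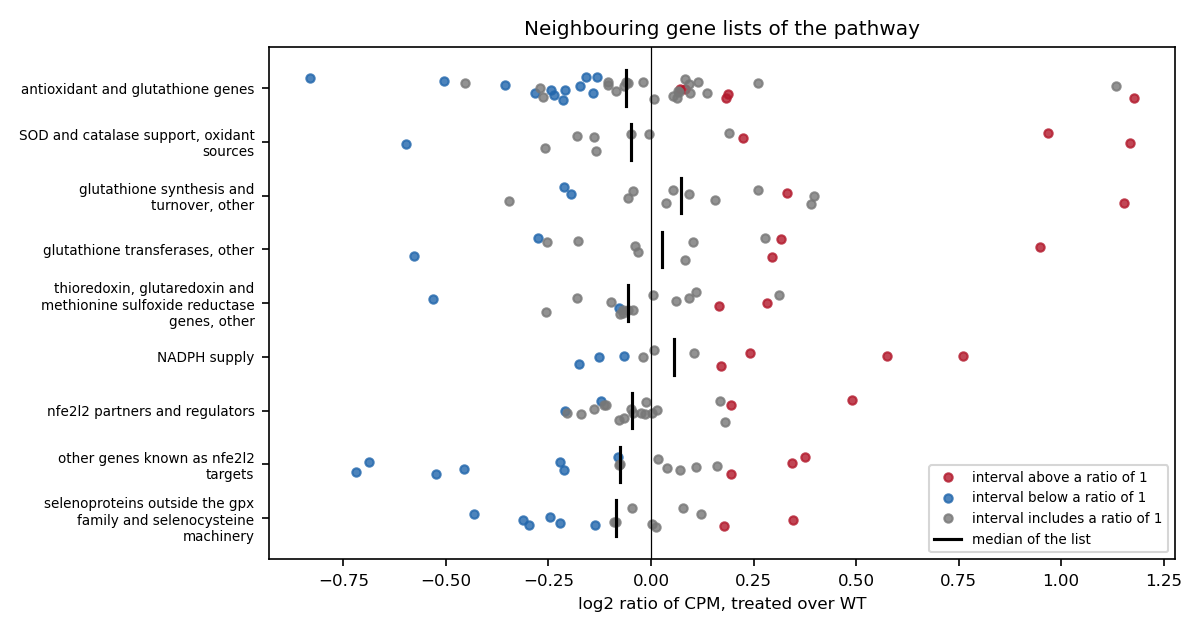
Log2 ratio of CPM, treated over WT, of each antioxidant and glutathione gene (top) and of each gene of 8 neighbouring lists, as points at the floor of 1 CPM, with the median of each list as a black line. Red points have a counting interval above a ratio of 1 and blue points below; medians lie between -0.09 and 0.07.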

How the data were processed

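RNA-seq of 2 zebrafish libraries, 1 per group, was analysed. The deposited table holds the authors' estimated counts (expected counts), not normalised, and FPKM values scaled by the authors to gene length and library size, per the file headers. The counts deposited per library equalled those of the table for all 26597 genes. The build was danRer11, per the submitters' processing notes, which name HISAT2, edgeR, DESeq2, StringTie 1.3.1, Bowtie2 2.2.8 and fastp 0.18.0, with roles and strand setting not given in the sources used here. Symbols came from a names table, which named 23499 of 25197 Ensembl IDs; 1400 assembled loci have none.

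Counts were rounded and scaled by TMM factors (edgeR 4.0.16, R 4.3.3; 0.979 for WT, 1.02 for treated). Log2 ratios of treated over WT use CPM after adding 0.5 counts. The smallest and largest half-widths of the members' intervals were 0.04 and 1.25 on the log2 scale, and 3 counts amount to 0.157 CPM in WT and 0.152 CPM in treated. A gene entered at 1 CPM in either library. A symbol was matched ignoring case; otherwise its copy suffix was dropped and every ID of the capital name entered, which placed 8 of the 41 names. The members, lists and tests were chosen with earlier results of these data known. All members are given, and of each list the highest, the lowest and the most abundant gene; other genes named were chosen after their values were seen. The interval script was tested on simulated data. Alternatives used DESeq2 1.42.0 size factors, total counts, upper quartiles, other floors, priors, folds, FPKM with a pseudocount of 0.5, and names without dropped suffixes. Other steps used Python 3.11.15, scipy 1.17.1, numpy 2.4.6, matplotlib 3.10.9 and pandas 2.3.3.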

Additional observations from a re-analysis of the deposited data

How the results depend on the processing

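No paired analysis was possible because neither group has more than 1 library. The count of members at least 2-fold higher was 1. It became 2 with total counts or without an interval, the low SOD3 copy joining. That copy reached the floor only through the treated library, which fixes its direction. The count became 0 at a fold of 4 or with a floor of 20 CPM, an alternative chosen after seeing the data. The count of lower members was 0, and 1 at a fold of 1.5, which was HMOX1. Members with an interval above 1 went from 5 to 9 with total counts. Among the 116 neighbouring genes, the count of higher genes went from 2 to 4 with total counts, 5 at a fold of 1.5, 1 without dropped suffixes, and 0 with FPKM, at a fold of 4, or with floors of 5 or 20 CPM. Lower neighbours went from 0 to 3 at a fold of 1.5. The counts under altered settings in this section have no shares of all genes beside them. Neighbours with an interval below 1 went from 25 to 16 with total counts, and those above 1 from 21 to 10 with a floor of 20 CPM, which takes genes out. Their median of -0.036 became 0.027 with total counts and 0.024 with FPKM, neither of which carries the TMM factors. Signs of single members turned for PRDX4 and gstt1a with FPKM, for these and gstk1 with total counts, and for mgst3b with upper quartiles. Depth limits gpx3, SRXN1, nfe2l2b, gsto1 and the low SOD3 copy, each with at most 32 counts in a library.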

Other observations

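Counts and FPKM of a gene imply an effective length, which was compared between the libraries relative to the median gene. Among 33 members with at least 100 counts in both libraries, HMOX2 was the 1 member more than 5% away, with an implied length in the treated library of 0.898 of that in WT. Of all 13741 genes with such counts, 10.5% were that far off. The log2 ratio of HMOX2 was -0.24 from counts and -0.02 from FPKM, so its value depends on which deposited column is read. For NQO1 and GSR the implied lengths were both 0.957 of those in WT, and their FPKM ratios, 0.21 and 0.26, lay above their count ratios, 0.09 and 0.14.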
